A study of Mus musculus with 8 samples.

Results

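The axon guidance genes were taken as every gene of the count table whose symbol matched 1 of 10 spellings: Epha, Ephb, Efna, Efnb, Robo, Slit, Sema or Ntn followed by a digit, Plxn, and Unc5. The rule found 69 of the 24091 genes listed. Of these, 66 are receptors or ligands of axon guidance (31 receptors and 35 ligands). The other 3 shared only the spelling: Unc50, Unc5cl and the antisense transcript Plxna4os1. They are counted with the members and are not described further.

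RNA was sequenced from islets of 4 Itgb1 mutant and 4 control mouse libraries. The paper lists the Ngn3-Cre line on a C57BL/6 background and the floxed Itgb1 line as a mixed stock that is partly C57BL/6. In the mutant, floxed Itgb1, which encodes the integrin beta-1 subunit that binds cells to the extracellular matrix, was removed with Ngn3-Cre, so that deletion begins in endocrine progenitors and is carried into all islet endocrine cells. Vessels, stroma and nerves inside the islet keep the gene, and Ngn3 is also active in gut and brain. Controls are called wild type in the labels. The paper names littermate controls for its stained tissue and does not say so for the sequenced islets. Islets were isolated at 6 weeks of age and left to recover overnight before RNA extraction. Whether each library came from its own mouse is not in the labels, so the tests speak only of the spread among libraries, which may be technical.

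Axon guidance molecules are surface receptors and their secreted or membrane-bound ligands that steer growing axons by attraction and repulsion, and the same molecules position migrating cells and shape blood vessels. Slit proteins signal through Robo receptors, ephrins through Eph receptors (with signalling in both directions at the contact), semaphorins through plexins, often with a neuropilin as co-receptor, and netrins through Dcc and Unc5 receptors. In the mouse pancreas, Robo1 and Robo2 are known for keeping endocrine cells together in the islet, and EphA5 and ephrin-A5 for contact between beta cells. Many of these genes are also used by endothelial, mesenchymal or Schwann cells, which are present in isolated islets.

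Total counts were 39.6 to 63.9 M (mega) in the mutant libraries and 35.1 to 67.6 M in the control libraries. Itgb1 (chromosome 8, 128685654 to 128733579, GRCm38) had 266, 225, 193 and 255 CPM (counts per M counts of the library, scaled by TMM factors) in mutant libraries 1 to 4, against 422, 432, 408 and 315 CPM in control libraries 1 to 4. The mutant values were all below the control values (log2 fold change -0.75 ± 0.15 SE, two-sided exact permutation p = 0.0286, which is the lowest possible with 4 libraries a group). The edgeR adjusted p of Itgb1 was 0.256 and its DESeq2 adjusted p was 0.0012. At a change of less than 2-fold, the deleted gene itself was called by neither tool. Control libraries 2 and 3 stood apart: summed CPM of 10 acinar markers was 2937 and 9156 there, against 74.6 to 648 in the mutant libraries and 25.0 and 257 in the other controls. These 2 controls and mutant library 3 were also the 3 libraries with over 50 M counts. The difference of each named guidance member is therefore also given for the 5 libraries under 50 M counts (3 mutant and 2 control). These are called the shallower libraries. Among the controls, acinar content and depth cannot be told apart. Mutant library 3 was deep too, but its acinar sum was 99.8 CPM, within the range of the other mutant libraries. In RNA of whole islets, fewer cells of a type and less RNA per cell cannot be told apart either.

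Levels per length spanned over 3 orders of magnitude among the members. Plxnb2, a class B plexin that binds class 4 semaphorins, was the highest, with 121 CPM per kb of gene length in mutant islets and 87.0 CPM per kb in control islets. By the mean of both groups, the next guidance members were Sema7a, a membrane-anchored semaphorin, at 29.3 CPM per kb in mutant islets and 20.8 in control islets, and Sema4b, a class 4 semaphorin, at 15.5 and 19.3 CPM per kb. Robo2 was at 6.55 CPM per kb in mutant islets, below Robo4 at 7.69, and at 13.7 in control islets, the highest of its family there. The Slit ligands were lower, with Slit3 at 3.21 and 1.90 CPM per kb and Slit1 at 0.058 and 0.14 CPM per kb in mutant and control islets. At the low end, Epha6 had 1 count in the 8 libraries together. Epha10, Epha6, Ntn5 and Plxna4os1 did not pass the filter on low counts, which left 65 members tested.

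**Figure D1:**
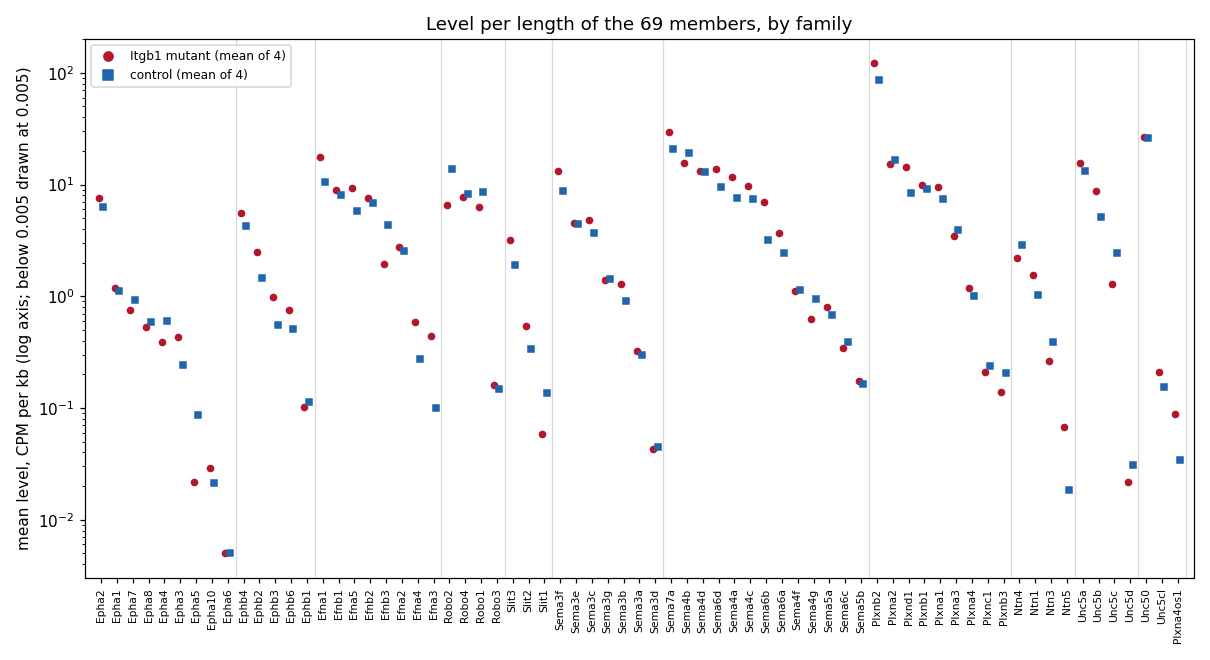
Mean level of each of the 69 members, in CPM per kb of gene length on a log axis, grouped by family and ordered within a family; red circles are the means of 4 mutant libraries and blue squares those of 4 control libraries. Plxnb2 is the highest, at 121 in mutant and 87.0 in control islets, and Robo2 is the member among the Robo receptors with the widest gap between the symbols.

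No member passed the test, for which a gene had to differ more than 2-fold at an adjusted p under 0.05. With edgeR's quasi-likelihood test, 0 of 15233 genes and 0 of 65 members were called (background 0%), and the smallest adjusted p among members was 0.353. This fit had no batch term. The paper corrected for batches that it does not name and reported genes passing these same thresholds. With DESeq2, 186 genes were called (background 1.22%), and again 0 members. At an unadjusted edgeR p below 0.05, 8 members were higher in the mutant (Epha3, Efna1, Efna3, Slit2, Sema6b, Plxnb2, Plxnd1 and Unc5b; background 6.4% of all genes) and in 4 the mutant was lower (Efnb3, Robo2, Slit1 and Unc5c; background 6.89%). Scaling by total counts alone gave 8 members higher and 2 lower, with a background of 7.06% and 3.3%. With DESeq2 the same threshold gave 10 members higher and 4 lower, where 8.02% and 8.72% of all genes passed. In the shallower libraries alone, 16 members were higher and 8 lower (background 12.7% and 10.6%) and 0 of 64 were called (background 0.0641%). With a term for library set in the model, 11 were higher and 2 lower (background 8.3% and 6.21%) and again 0 were called (background 0.0263%). The edgeR counts depended on single libraries. Leaving out mutant library 3 gave 16 higher and 5 lower members (background 8.46% and 7.94%). Fewer passed without mutant library 1 (2 and 2; background 3.95% and 3.67%), mutant library 2 (2 and 1; 4.42% and 4.1%) or mutant library 4 (1 and 4; 3.51% and 3.91%). The same held without control library 2 (2 and 3; 3.84% and 3.89%), control library 3 (1 and 3; 4.78% and 4.23%) or both of those controls (3 and 1; 4.35% and 3.88%). Compared with all 8 libraries, the share of all genes that passed was also higher without mutant library 3. It was lower without mutant library 1, 2 or 4, control library 2 or 3, or both of those controls. More genes passed without control library 1 (12 members higher and 5 lower, background 8.26% and 9.8%). The same was true without control library 4 (8 members higher and 4 lower, background 7.9% and 9.94%).

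By mean level, 41 of the 65 tested members were higher and 24 were lower in the mutant, and their median log2 fold change was 0.13, where the median over all genes was 0.0015. The members' median was 0.23 without mutant library 3, 0.21 without control library 1, 0.049 without mutant library 1, 0.078 without control library 2, 0.062 without both control libraries 2 and 3, and 0.077 with the term for library set. By role, 24 of 34 ligands had the higher mean in the mutant (median 0.21) and so did 15 of 29 receptors (median 0.071). The receptors' median was 0.017 in the shallower libraries and turned to -0.079 with the term for library set, and that of the ligands was 0.23 and 0.11. The 4 mutant libraries lay wholly above the 4 control libraries for 4 members (Epha3, Efna1, Plxnd1 and Unc5b; background 4.4%) and wholly below them for 1 (Efnb3; background 3.8%).

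**Figure D2:**
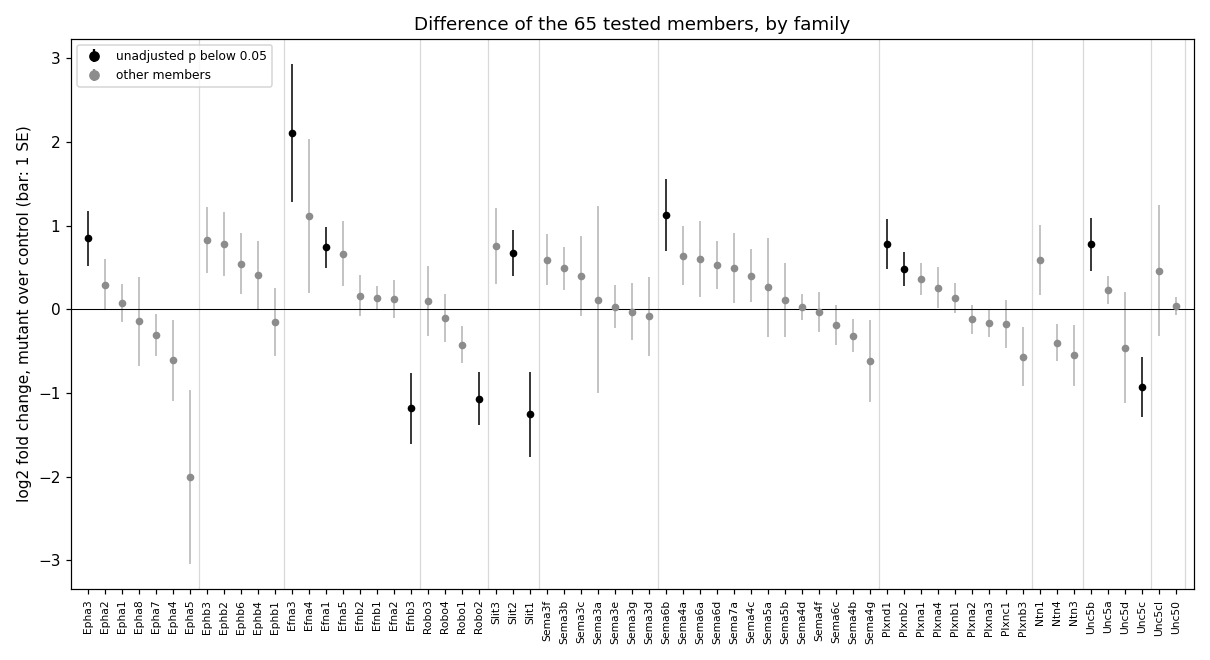
Log2 fold change of mutant over control for the 65 tested members, grouped by family; bars are 1 SE and black marks the members at an unadjusted edgeR p below 0.05. Of the black points, 8 lie above 0 and 4 below it, and the ephrin and Slit families hold points on both sides.

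Among the Robo receptors, the mean was lower in mutant islets for Robo1 and Robo2, whose products bind Slit, and near the control mean for Robo3 and for Robo4, the endothelial member. Robo2 (chromosome 16, 73892306 to 74410912, minus strand) had 73.7, 81.7, 111 and 71.0 CPM in mutant libraries 1 to 4, against 113, 215, 273 and 106 CPM in control libraries 1 to 4. Control libraries 2 and 3 were the highest, and the groups overlapped only because mutant library 3 lay above control library 4. The mutant averaged 84.3 ± 18.2 CPM and the control 177 ± 81.3 CPM (SD over 4 libraries), a log2 fold change of -1.07 ± 0.32 SE (edgeR adjusted p = 0.353; DESeq2 adjusted p = 0.0566, and 0.0566 to 0.676 over the alternatives run). Within each set of libraries the mutants lay below the controls. In the 5 shallower libraries the log2 fold change was -0.54 ± 0.076 SE (edgeR adjusted p = 0.0707), and in the other 3 it was -1.14. Without control libraries 2 and 3 alone it was -0.38.

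Robo1 (chromosome 16, 72663149 to 73046100, plus strand) had 58.4, 80.8, 97.5 and 70.0 CPM in mutant islets, against 120, 101, 67.6 and 122 CPM in control islets. The lowest control was control library 3, which lay below 3 of the 4 mutants. Mutant over control, the log2 fold change came to -0.42 ± 0.22 SE (edgeR adjusted p = 0.414). In the shallower libraries it was -0.80 ± 0.13 SE (edgeR adjusted p = 0.0766), with no overlap, while in the other 3 libraries it was 0.21.

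The window before the RefSeq start of Robo2 is shown because this gene had the smallest p of the members, and that of Plxnd1, a receptor on the opposite side, is shown for comparison. Both are the 250 bases before the annotated start, 5′ to 3′ on the gene's own strand, from RefSeq on GRCm38.p6: chr16:74411826-74412075 for Robo2, 913 bases before the gene start in the count table, and chr6:115995006-115995255 for Plxnd1, directly before it. Neither overlaps an annotated exon. Capitals mark CAGCTG, an E-box, in Robo2 and GGGCGG, a GC box, in Plxnd1.
Robo2: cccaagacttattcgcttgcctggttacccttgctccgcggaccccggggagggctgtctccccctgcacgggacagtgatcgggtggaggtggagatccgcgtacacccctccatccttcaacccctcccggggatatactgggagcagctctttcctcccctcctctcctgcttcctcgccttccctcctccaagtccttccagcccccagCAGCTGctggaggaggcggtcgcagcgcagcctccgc
Plxnd1: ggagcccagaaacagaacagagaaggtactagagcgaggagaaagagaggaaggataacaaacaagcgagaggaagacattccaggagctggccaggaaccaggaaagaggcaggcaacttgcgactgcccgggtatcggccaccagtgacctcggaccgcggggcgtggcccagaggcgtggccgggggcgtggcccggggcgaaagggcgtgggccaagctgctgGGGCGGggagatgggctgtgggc
Of the 69 members, 59 had such a window, and the 1 nearest the gene start was taken. Its annotated start lay 271370 bases from the gene start in the count table for Sema3a and 37064 for Sema4d. The windows of all genes were not limited to 1 per gene, so the shares below compare unlike sets. Searched on both strands, ACGTG, the core that hypoxia-inducible factors bind, was in 8 of the 59 (13.6%, against 16.6% of all 32841 windows), and CAGATG, an E-box bound by Neurod and Neurog factors, in 4 (6.8%, against 14.4%). CAGCTG was in 11 (18.6%, against 13.0%) and GGGCGG in 43 (72.9%, against 32.7%); these last motifs were chosen after the windows had been seen. Neither ACGTG nor CAGATG was in the Robo2 or Plxnd1 window. A match is a description of the letters and not of binding.

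The 3 Slit ligands differed in sign, with 2 higher means and 1 lower mean in the mutant. Slit3 (chromosome 11, 35121456 to 35708507, plus strand) had 17.6, 18.1, 5.13 and 22.9 CPM in mutant islets, against 5.27, 12.2, 12.8 and 7.32 CPM in control islets. Mutant library 3 was the lowest of all 8, and the other mutants were above every control. On the log2 scale the difference was 0.76 ± 0.46 SE (edgeR adjusted p = 0.462). It was 1.63 ± 0.20 SE in the shallower libraries (edgeR adjusted p = 0.0675) and -1.29 in the other 3 libraries. The direction thus turned between the sets (edgeR interaction of genotype with the library set, adjusted p = 0.0105).

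Slit2 (chromosome 5, 47983155 to 48307736, plus strand) had 8.43, 8.20, 5.66 and 8.49 CPM in mutant islets, against 5.60, 5.92, 2.68 and 5.10 CPM in control islets. Only mutant library 3 reached into the control range. This gave a log2 fold change of 0.67 ± 0.28 SE (edgeR adjusted p = 0.363), and 0.64 ± 0.13 SE in the shallower libraries. Slit1 was near the limit of detection, with 9 to 21 counts per mutant library and 14 to 60 counts per control library, and a log2 fold change of -1.26 ± 0.51 SE (edgeR adjusted p = 0.359), but -0.37 ± 0.49 SE in the shallower libraries.

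The Eph receptors are receptor tyrosine kinases. Of the 7 EphA receptors tested, 3 had the higher and 4 the lower mean in the mutant, and of the 5 EphB receptors 4 had the higher mean. Epha3 (chromosome 16, 63545218 to 63864157, minus strand) had 2.10, 2.05, 1.73 and 2.13 CPM in mutant islets, against 1.63, 0.76, 0.72 and 1.34 CPM in control islets. The groups did not overlap, and the log2 fold change was 0.85 ± 0.33 SE (edgeR adjusted p = 0.353), on 38 to 117 counts per library, and 0.49 ± 0.21 SE in the shallower libraries. Epha5, the partner of ephrin-A5 on beta cells, was barely detected, with 0, 7, 13 and 28 counts in mutant libraries and 7, 114, 23 and 57 counts in control libraries. The 0 in mutant library 1 allows up to 0.068 CPM (3 counts, counting error only), and the groups overlapped. The log2 fold change of -2.00 ± 1.04 SE (edgeR adjusted p = 0.414) ranged over -3.03 (without mutant library 4) to -1.37 when single libraries were left out and was -1.48 ± 1.31 SE in the shallower libraries.

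Ephb2 and Ephb3, receptors for the transmembrane B ephrins, had higher mutant means with overlapping groups. Ephb2 had 40.4, 35.8, 17.5 and 30.6 CPM in mutant islets, against 22.2, 6.96, 21.4 and 21.8 CPM in control islets. Mutant library 3 fell inside the control range, and control library 2 was far below the other controls. The log2 fold change was 0.78 ± 0.39 SE (edgeR adjusted p = 0.401), and that of Ephb3 was 0.83 ± 0.39 SE (edgeR adjusted p = 0.389). In the shallower libraries Ephb2 was at 0.69 ± 0.13 SE and Ephb3 at 0.60 ± 0.28 SE, and the groups overlapped for neither. Ephb2 was at 0.51 without control library 2.

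Of the 8 ephrins, 7 had the higher mean in the mutant and 1 the lower. Efna1 (chromosome 3, 89271730 to 89280951, minus strand), which encodes a lipid-anchored ligand of EphA receptors known from endothelium, had 34.1, 26.1, 20.7 and 35.7 CPM in mutant islets, against 20.2, 10.9, 19.1 and 19.5 CPM in control islets. The lowest mutant lay just above the highest control. The mutant averaged 29.1 ± 7.04 CPM and the control 17.4 ± 4.39 CPM (SD over 4 libraries), a log2 fold change of 0.74 ± 0.25 SE (edgeR adjusted p = 0.353), and 0.68 ± 0.15 SE in the shallower libraries.

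Efnb3 (chromosome 11, 69554092 to 69560237, minus strand), a transmembrane ephrin, was the only ephrin with the lower mean. It had 6.58, 5.22, 7.28 and 5.64 CPM in mutant islets, against 8.10, 12.3, 28.6 and 7.32 CPM in control islets. The groups did not overlap, but the highest mutant and the lowest control were almost equal, and without control library 3 the log2 fold change was -0.58. Mutant over control, the log2 fold change came to -1.19 ± 0.42 SE (edgeR adjusted p = 0.353), against -0.41 ± 0.16 SE in the shallower libraries.

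Efna5, the ligand of Epha5, had 61.5, 48.2, 18.4 and 65.8 CPM in mutant islets, against 34.2, 20.8, 23.6 and 43.6 CPM in control islets. Mutant library 3 was the lowest of all 8 and the other mutants were the highest. On the log2 scale the difference was 0.67 ± 0.39 SE (edgeR adjusted p = 0.457), with 0.58 ± 0.17 SE in the shallower libraries and -0.27 in the other 3. Efna3, named because it passed the unadjusted threshold and chosen after its values were seen, had 0.10 to 0.90 CPM in mutant islets and 0.037 to 0.29 CPM in control islets. Its log2 fold change of 2.11 ± 0.83 SE rested on few counts, and 14.1% of its exon bases are shared with another gene's exons.

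Semaphorins are secreted or membrane-bound guidance cues. Of the 7 secreted class 3 genes, 0 passed the unadjusted threshold. Sema3a, a repellent for axons that acts through neuropilin-1, had 7.87, 1.06, 0.61 and 2.56 CPM in mutant islets, against 5.63, 0.41, 0.19 and 4.98 CPM in control islets. Its values varied more within each group than between them, and its log2 fold change of 0.11 ± 1.12 SE turned negative under 5 of 17 alternatives (in the shallower libraries, and without control library 2, control library 3, both of these, or mutant library 1). Sema3f, which acts through neuropilin-2, averaged 53.9 ± 12.8 CPM in mutant and 35.7 ± 14.8 CPM in control islets (SD over 4 libraries), a log2 fold change of 0.59 ± 0.31 SE (edgeR adjusted p = 0.414). The log2 fold change of Sema3b was 0.49 ± 0.26 SE (edgeR adjusted p = 0.422). In the shallower libraries Sema3f was at 0.30 ± 0.11 SE and Sema3b at 0.65 ± 0.33 SE, and without mutant library 1 Sema3b was at 0.28.

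Of the 13 other semaphorins, 9 had the higher mean in the mutant and Sema6b alone passed the unadjusted threshold. Sema6b (chromosome 17, 56123085 to 56140343, minus strand), a transmembrane semaphorin that binds class A plexins, had 30.0, 31.0, 10.4 and 38.7 CPM in mutant islets, against 13.5, 7.51, 9.56 and 19.9 CPM in control islets. Only mutant library 3 fell inside the control range. This gave a log2 fold change of 1.12 ± 0.43 SE (edgeR adjusted p = 0.353), and 0.99 ± 0.20 SE in the shallower libraries. Sema6d, the most abundant class 6 member per length, averaged 132 ± 36.5 CPM in mutant and 91.6 ± 30.7 CPM in control islets (SD over 4 libraries), a log2 fold change of 0.53 ± 0.29 SE (edgeR adjusted p = 0.43), and 0.34 ± 0.079 SE in the shallower libraries.

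Plexins are the semaphorin receptors, and 5 of 9 had the higher mean in the mutant. Plxnd1 (chromosome 6, 115954811 to 115995005, minus strand), the receptor for Sema3e that is known from endothelium, had 106, 95.8, 90.4 and 105 CPM in mutant islets, against 82.2, 37.0, 33.5 and 78.3 CPM in control islets. The groups did not overlap, and control libraries 2 and 3 were at less than 40 CPM. The mutant averaged 99.4 ± 7.59 CPM and the control 57.8 ± 26.1 CPM (SD over 4 libraries), a log2 fold change of 0.78 ± 0.30 SE (edgeR adjusted p = 0.353). It was 0.35 ± 0.066 SE in the shallower libraries and 1.36 in the other 3.

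Plxnb2 (chromosome 15, 89155546 to 89180788, minus strand) had 813, 844, 668 and 950 CPM in mutant islets, against 675, 459, 456 and 756 CPM in control islets. Mutant library 3 alone reached into the control range. The log2 fold change was 0.48 ± 0.20 SE (edgeR adjusted p = 0.368), and 0.28 ± 0.10 SE in the shallower libraries.

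The netrins are secreted cues that attract through Dcc and repel through Unc5 receptors. Ntn4, a basement membrane netrin, averaged 5.26 ± 1.10 CPM in mutant and 6.94 ± 1.22 CPM in control islets (SD over 4 libraries), a log2 fold change of -0.40 ± 0.22 SE (edgeR adjusted p = 0.439). Ntn3 had under 3 CPM in every library, with a log2 fold change of -0.55 ± 0.36 SE (edgeR adjusted p = 0.495). In the shallower libraries Ntn4 was at -0.56 ± 0.22 SE and Ntn3 at -0.27 ± 0.23 SE, and without mutant library 3 Ntn3 was at -0.30.

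Unc5b and Unc5c, both netrin receptors, had opposite signs. Unc5b (chromosome 10, 60762595 to 60831581, minus strand), which is known from endothelium, had 50.3, 50.7, 62.6 and 55.9 CPM in mutant islets, against 48.9, 17.5, 20.7 and 41.1 CPM in control islets. The groups did not overlap, though mutant library 1 and control library 1 were close. Mutant over control, the log2 fold change came to 0.78 ± 0.32 SE (edgeR adjusted p = 0.363), but 0.21 ± 0.098 SE in the shallower libraries.

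Unc5c (chromosome 3, 141465564 to 141834924, plus strand) had 15.3, 12.6, 22.1 and 10.9 CPM in mutant islets, against 28.1, 17.5, 50.1 and 20.4 CPM in control islets. Mutant library 3 was the only mutant inside the control range. On the log2 scale the difference was -0.93 ± 0.36 SE (edgeR adjusted p = 0.353), and -0.91 ± 0.19 SE in the shallower libraries (edgeR adjusted p = 0.0985). It was -0.53 without control library 3 and -0.67 without control libraries 2 and 3.

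**Figure D3:**
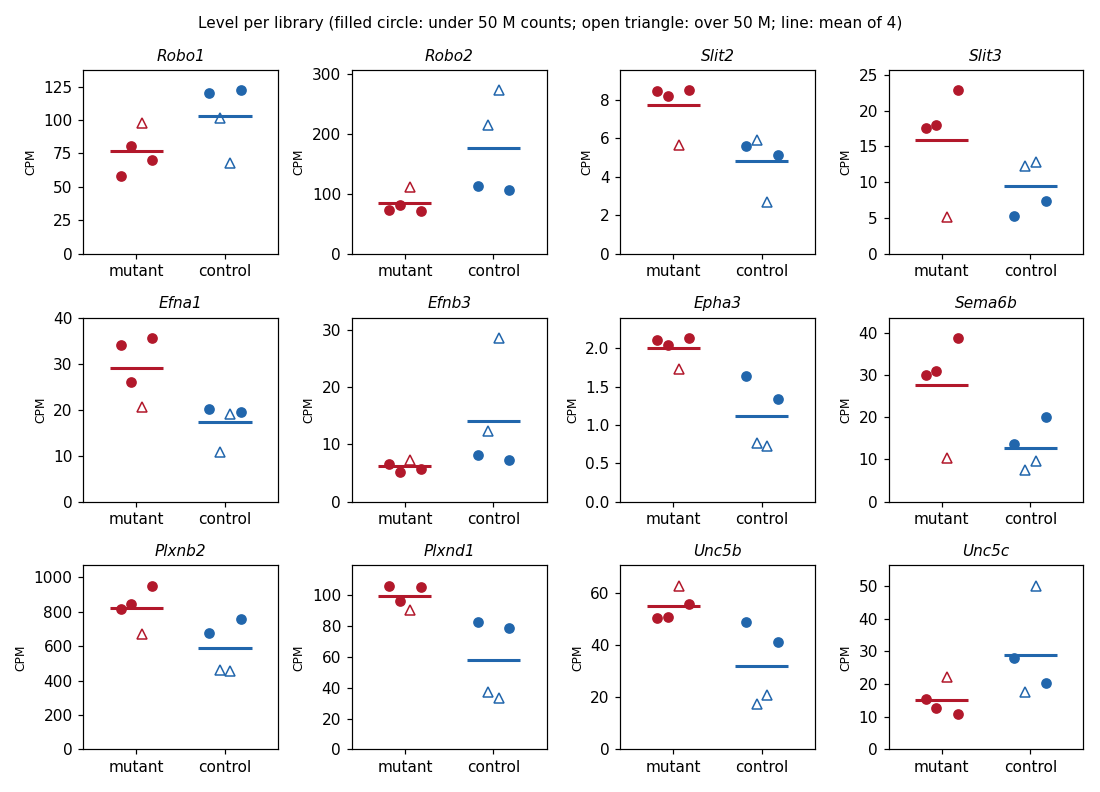
Level of 12 members in each library, in CPM, with mutant libraries left and control libraries right; filled circles are libraries under 50 M counts, open triangles those over 50 M, and lines the means of 4. For Robo2 the open triangles of the control sit at 215 and 273, above all other points, and for Slit3 the open triangle of the mutant lies at 5.13, below the other mutants.

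Control libraries 2 and 3, which stood apart, were also left out with mutant library 3 kept. The log2 fold change was then 0.43 for Epha3, 0.71 for Sema6b, 0.19 for Plxnb2, 0.31 for Plxnd1, 0.29 for Unc5b and -0.32 for Efnb3, each over 1.5 times smaller than in all libraries, and 1.33 for Slit3 and -0.66 for Robo1, each over 1.5 times larger in size. It was likewise over 1.5 times smaller for Robo2 (-0.38), Ephb2 (0.49), Ephb3 (0.40), Efna5 (0.31), Slit1 (-0.61), Sema3f (0.15) and Sema6d (0.16). The sets of libraries were then compared member by member. In both sets without overlap, 11 of the 65 members were higher in the mutant (16.9%; background 9.34%), among them Epha3, Efna1, Sema6b, Plxnb2, Plxnd1 and Unc5b, and 3 were lower (Efnb3, Robo2 and Ntn3; 4.62%, background 8.38%). The sets disagreed without overlap for 7 members that were higher in the mutant in the shallower and lower in the deeper libraries (10.8%; background 7.78%), and for 4 of the reverse kind (6.15%; background 8.23%). The interaction of genotype with the library set passed an adjusted edgeR p of 0.05 for 5 members (Epha7, Slit3, Sema4a, Plxnd1 and Unc5b; 7.69%, background 10.9%). Epha7 and Sema4a are named here after their values were seen. One set holds a single mutant library, so its spread was taken from the other libraries.

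**Figure D4:**
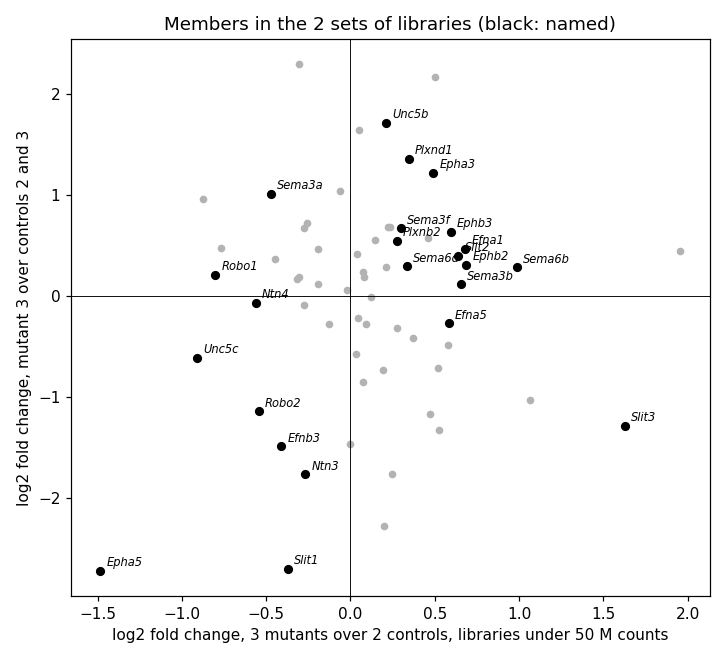
Log2 fold change of mutant over control in the 5 shallower libraries (x axis) and in the 3 deeper ones (y axis) for the tested members; black points are named. Slit3 is at 1.63 and -1.29, on opposite sides of 0, while Robo2 is at -0.54 and -1.14 and Unc5b at 0.21 and 1.71, each on 1 side.

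Other genes of the same pathways were taken from lists. Of 16 partners outside the rule (co-receptors, adhesion partners and cofactors), 14 were tested, 1 of them higher and 2 lower in the mutant with an unadjusted p under 0.05 (background 6.4% and 6.89%), and the median log2 fold change was 0.33 over all libraries and 0.011 in the shallower ones. Gpc1, a glypican that binds Slit, had a mean of 39.8 ± 4.0 CPM in mutant and 22.2 ± 8.79 CPM in control islets (SD over 4 libraries), a log2 fold change of 0.85 ± 0.26 SE (edgeR adjusted p = 0.353). Dscam, a netrin receptor, had a mean of 5.31 ± 1.04 CPM in mutant and 10.6 ± 6.00 CPM in control islets (SD over 4 libraries), a log2 fold change of -1.0 ± 0.36 SE (edgeR adjusted p = 0.353). Of 36 intracellular effectors, 0 were higher and 2 lower at the same threshold, with a median of -0.0073, against 0.14 in the shallower libraries. These were the adaptors Nck2 (log2 fold change -0.28 ± 0.094 SE, edgeR adjusted p = 0.353) and Nck1 (-0.33 ± 0.14 SE, edgeR adjusted p = 0.366). In the shallower libraries Nck2 was at -0.23 ± 0.074 SE. Nck1 was at only -0.083 ± 0.083 SE there, with overlapping groups, and at -0.60 in the deeper libraries.

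Members were also split by the cells they are known from. Of 8 known from endothelium, 3 passed the unadjusted threshold upward and 0 downward (background 6.4% and 6.89% of all genes, as for each list below). Their median was 0.50 over all libraries and 0.14 in the shallower libraries. The summed CPM of 10 endothelial markers was 714 to 892 in mutant and 772 to 819 in control islets, 1 marker of the 10 was higher and 1 lower at the same threshold, and none was at 0. Of 8 members known from Schwann cells, neurons or oligodendrocytes, 0 passed in either direction (median -0.058 over all libraries and 0.044 in the shallower ones). Summed CPM of 8 Schwann markers was 53.7 to 81.6 in mutant and 33.2 to 53.9 in control islets. Of these markers, 2 were higher and 0 lower at the same threshold (median 0.84 over all libraries and 0.25 in the shallower ones). Of the 8 members known from mouse islets, 1 was higher and 2 were lower (median -0.16, and -0.42 in the shallower libraries).

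Markers of other islet cells were summed beside these results. The summed CPM of 12 fibroblast, stellate cell and pericyte markers was 811 to 943 in mutant and 347 to 514 in control islets, with 10 of the 12 higher at an unadjusted p below 0.05 and none at 0. The summed CPM of 8 ductal markers was 1092 to 3170 in mutant and 313 to 1738 in control islets, with 3 higher. The sum of 8 beta cell markers was 31702 to 49317 CPM in mutant islets and 32354, 120604, 173200 and 34049 CPM in control libraries 1 to 4. Only control libraries 2 and 3 lay above the mutant range, and the median log2 fold change of the beta cell markers was -1.25 over all libraries but 0.11 in the shallower ones. The sum of 6 alpha cell markers was 10629 to 20311 CPM in mutant and 19369 to 93034 CPM in control islets, with 4 lower and a median of -1.08 over all libraries and -0.36 in the shallower ones. The sum of 4 delta cell markers was 904 to 2401 CPM in mutant and 1816 to 5526 CPM in control islets. At an unadjusted p below 0.05, 2 of the 4 were lower and 0 higher. Their median log2 fold change was -0.95 over all libraries and -0.69 in the shallower ones. The sum of 8 neuron markers was 147 to 236 CPM in mutant and 187 to 371 CPM in control islets. That of 8 leukocyte markers was 51.7 to 85.9 CPM in mutant and 48.9 to 160 CPM in control islets. The part of these cells in the differences of Slit3, Unc5c, Robo2 and the other members was not tested.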

How the data were processed

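The 8 libraries were made from ribosome-depleted islet RNA and read single-end. The authors trimmed the reads, aligned them with STAR to GRCm38 (mm10) and counted reads per gene with featureCounts, and deposited raw counts for 24091 genes. Strand was not used in counting as far as the sources say. A second deposited table holds the authors' own fold changes and p-values and was not used. The study corrected for batches that it does not name, and no batch term was used here. Counts were tested in edgeR 4.0.16 (R 4.3.3) with TMM factors, a filter on low counts by group, the quasi-likelihood test and Benjamini-Hochberg adjustment over 15233 genes. SE is the size of the log2 fold change over the square root of F. DESeq2 1.42.0 was an alternative. The fit was tested on simulated data. Named members are 7 fixed genes, the 2 of smallest p in each family, any member called, and 2 partners and 2 effectors. Members, lists and tests were chosen with earlier results of these data known. Promoter windows came from RefSeq. Of the gene symbols, 26 read as dates in the deposited table. Totals of 35.1 to 67.6 M counts make 1 count worth 0.015 to 0.026 CPM, and limits from a count of 0 cover counting error only.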

Additional observations from a re-analysis of the deposited data

Results flagged for a closer look

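In 4 named members 1 library lay far from the other 3 of its group: control library 2 for Ephb2 (6.96 CPM) and for Efna1 (10.9 CPM), mutant library 3 for Slit2 (5.66 CPM) and mutant library 1 for Sema3b (7.71 CPM). By chance about 1 in 20 groups is picked out this way, and 23 members with 2 groups each were looked at.

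For 4 named members the effect of genotype was flagged as differing between the library sets. Robo1 and Sema3a, whose signs differed between the sets, were not flagged. The difference is given as the log2 effect in the 3 libraries over 50 M counts minus that in the other 5. It was -2.92 for Slit3, 1.01 for Plxnd1 and 1.5 for Unc5b (edgeR interaction, adjusted p = 0.0105, 0.0132 and 0.0124). For Efna5 it was -0.86, with mutants above controls in one set and below them in the other, and the interaction missed the threshold (edgeR adjusted p = 0.102).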

How the results depend on the processing

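No member was called under any of the 17 alternatives, whose smallest adjusted p for a member was 0.0566 (DESeq2, Robo2). Calls over all genes numbered 186 with DESeq2, 4 (all higher) with a term for libraries over 50 M counts and 10 in the shallower libraries, against 0. Genes at an unadjusted p below 0.05 numbered 1976 higher and 1656 lower in the shallower libraries, 540 to 1308 higher and 564 to 1534 lower without single libraries, and 607 lower without both control libraries 2 and 3. Scaling by total counts gave 1075 higher and 503 lower and shifted the median over all genes to 0.15 and that of members to 0.28. Members past that threshold numbered 8 higher and 2 lower with total counts, 11 and 2 with the term, 16 and 8 in the shallower libraries, 3 and 1 without control libraries 2 and 3 (an alternative chosen after seeing the data), and 1 to 16 higher and 1 to 5 lower without single libraries. Partners and effectors past it numbered 5, against 8 with DESeq2, 8 with the term, 16 in the shallower libraries and 3 to 13 without single libraries. Sema3a turned to -0.47 in the shallower libraries, to -0.83 without control libraries 2 and 3, and ranged over -0.99 to 0.71 without single libraries; no other named member changed sign. The causes were not tested.

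The correlations of same-numbered deviations were 0.43, -0.038, 0.43 and 0.22 for replicates 1 to 4. Mutant libraries 1, 3 and 4 correlated best with the control library of the same number. For mutant library 4 the margin was narrow (0.224, against 0.207 with control library 2). Mutant library 2 correlated best with control library 4 (0.224). Whether the replicate numbers mark pairs of libraries was not tested. A replicate block gave 1559 genes higher (10.2%) and 1128 lower (7.4%) at an unadjusted edgeR p below 0.05. At the same threshold it gave 16 members higher, 5 members lower, and 11 partners and effectors, with no call. Depth limits Epha5, Slit1 and Efna3, which had few counts. Epha5 and Slit1 could not be fitted under the stricter filter.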
